A study of Mus musculus with 2 samples.

Results

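The mRNAs of 10 growth factor receptors (Pdgfra, Pdgfrb, Egfr, Fgfr1, Igf1r, Igf2r, Insr, Met, Tgfbr1 and Tgfbr2) were followed between the polysomes and the free plus monosome fraction of NIH3T3 cells, an established line of murine fibroblasts. They were taken by the gene name that the array design gives to each probe, and they had 28 of the 41174 non-control probes, printed as 64 spots. The study held 2 samples, untreated control cells and cells given 10 µM thapsigargin for 3 h, both grown in medium with 10% bovine serum, with no genetic change named in the labels. Thapsigargin blocks the calcium pump of the endoplasmic reticulum and induces the unfolded protein response, in which PERK phosphorylates eIF2α and general translation initiation falls. Lysates were separated on 10-40% sucrose gradients, and on each array the polysome (P) RNA carried Cy3 and the free plus monosome (FM) RNA carried Cy5. Translation efficiency was given as log2 P/FM, and the mean of both log2 signals (A) as a measure of abundance. Each condition was 1 array on which the RNA of 3 preparations had been pooled, so the spread between cultures is unknown and differences are given without a test. The P and FM RNA entered labelling in the amounts that the gradient gave, and the ratio was left without normalization, so the zero of log2 P/FM is set by the labelling and the scan. The comparison asked how the ribosome loading of the receptor mRNAs changed while general initiation was blocked.

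Most of these receptors are single-pass membrane proteins that are made on the rough endoplasmic reticulum. Pdgfra, Pdgfrb, Egfr, Fgfr1, Igf1r, Insr and Met are receptor tyrosine kinases, which dimerise or rearrange on ligand binding, phosphorylate themselves and recruit adaptors that start the Ras and PI3K routes. Tgfbr1 and Tgfbr2 are the serine/threonine kinases that bind TGF-beta together and phosphorylate Smad proteins. Igf2r, also called the cation-independent mannose 6-phosphate receptor, has no kinase; it carries Igf2 and lysosomal enzymes to lysosomes. Fibroblasts grow on serum chiefly through PDGF, FGF and IGF, and PDGF receptors are classical markers of this cell type.

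The sequences below are the probes on which the results turn, in the 5′ to 3′ sense of the mRNA. The probe for Fgfr1 that was printed many times and the probe of Fgfr1 nearest the 3′ end of its transcript record overlap by 39 bases (mm9, plus strand, chr8:26684042-26684101 and chr8:26684063-26684122). Both lie in the part that encodes the kinase domain. They differ at 1 base, written A57G with positions counted from the 5′ end of the first probe, and this base is in capitals.
Fgfr1 A_51_P109469: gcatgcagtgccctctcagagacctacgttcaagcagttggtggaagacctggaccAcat
Fgfr1 A_52_P668810: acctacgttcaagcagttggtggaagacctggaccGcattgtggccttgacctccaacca
The probe of Met that lay farthest from the 3′ end is in coding sequence (mm9, plus strand, chr6:17503299-17503358) and is shown because it gave another value than the 3′ probes of the same transcript.
Met A_51_P103929: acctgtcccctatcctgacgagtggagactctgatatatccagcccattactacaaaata
Of 4 probes that start late on their transcripts, the first 30 of 60 bases are shown, because Met is compared there with its coding probe and the others have the largest measured change or bound of their gene, for Met (chr6:17523765-17523824), Pdgfra (chr5:75593888-75593947), Igf1r (chr7:75376998-75377057) and Egfr (chr11:16813815-16813874), all on the plus strand of mm9.
Met A_52_P656418: gagaaagctgtaatgtgaaaatcatgttct
Pdgfra A_51_P345649: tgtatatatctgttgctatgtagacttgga
Igf1r A_51_P474538: gtagtcgttgacgaagctctggtttacaag
Egfr A_52_P106259: gttgcaagccactctaactgtagcaatgaa

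A probe was taken as measured when its A was above 4.5 on both arrays, which held for 17173 probes of 11936 genes. Of the 28 receptor probes 16 were measured, from 8 of the 10 genes. The 12 others were all 6 probes of Egfr, both probes of Insr, 2 of Tgfbr2, 1 of Tgfbr1 and 1 of Igf1r. The spread available was that of spots and of probes within an array. Among the 110 measured probes with 8 or more spots left, the median SD of the change in log2 P/FM over spots was 0.10. Among 3438 RefSeq transcripts with 2 or more measured probes, the median SD of the change over probes was 0.32. A change of a gene under 0.32 is therefore within what different probes of a transcript commonly give.

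In the median over the 8 measured receptor genes, log2 P/FM went from -0.16 in control to 0.51 with thapsigargin, and the median of the gene-wise changes was 1.06. Over all 11936 measured genes the corresponding values were 0.23, -0.36 and -0.67. The change was above 0 for 7 of the 8 receptors and below 0 for Fgfr1. It was 1 or more for Pdgfra, Igf1r, Igf2r and Tgfbr1, that is for 4 of 8 receptors, against 12.4% of all measured genes. Tgfbr1 was at 0.77, under this limit, in the deposited table and without the A filter, which both include its dim probe. It was -0.8 or lower for 1 of 8, against 46.1% of all measured genes. Scaling moved these values: the median change of the receptors was 1.57 after centring each array, 1.36 after loess and 3.61 after scaling to the spike-in probes, and that of all genes was -0.16, -0.13 and 1.88, so that with spike-in scaling the direction of all genes, and of Fgfr1 at 1.16, turned positive. Other choices lowered the receptor median. It was 0.89 with normexp background correction, 0.80 without background subtraction, 0.78 without the A filter and 0.77 in the deposited table, which includes Egfr. The median of all genes was then -0.03, -0.46, -0.61 and -0.68.

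**Figure D1:**
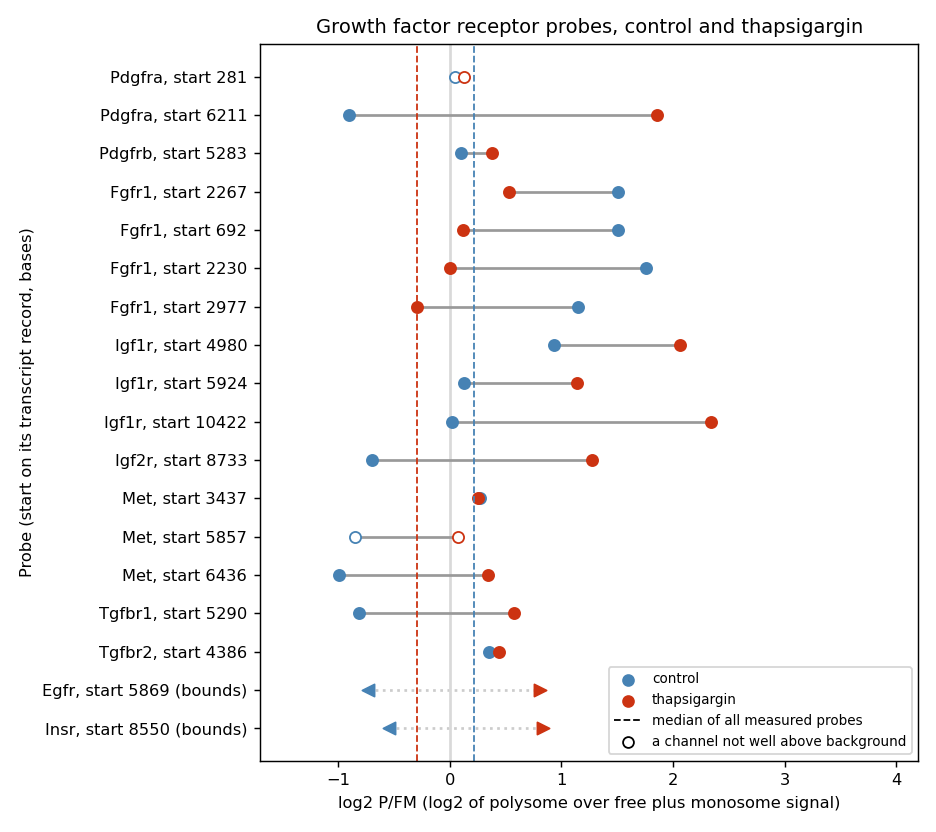
log2 P/FM of each measured receptor probe in control (blue) and thapsigargin (red), labelled by the position on its transcript record at which the probe starts. Open symbols mark probes with a channel that was not well above background. Arrowheads give limits for Egfr and Insr at the level set for dim channels, which are not strict bounds. Dashed lines give the medians of all measured probes, 0.22 in control and -0.29 with thapsigargin. The 4 Fgfr1 probes moved left, and the longest moves to the right were those of Pdgfra (start 6211), Igf1r (start 10422) and Igf2r.

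Counted by probe, 7 of 16 receptor probes gained 1 or more, against 14.1% of all measured probes, and 4 of 16 lost 0.8 or more, the loss by which the study called an mRNA sensitive, against 44.4%. All 4 of the latter were Fgfr1 probes. Most receptor probes start beyond base 4000 of their transcripts. Of all measured probes on RefSeq transcripts, 33.4% of those starting from 4000 to 6000 and 65.8% of those from 6000 on gained 1 or more. An mRNA was termed inducible when its log2 P/FM was at or below 0 in control and rose by 1 or more, which held for 4 of 16 receptor probes (1 each of Pdgfra, Igf2r, Met and Tgfbr1) and for 12.7% of all probes. It was termed resistant at 0.8 or above on both arrays, which held for 1 of 16, an Igf1r probe, and for 3.32% of all probes. With the probes weighted equally the median change of the receptors was 0.61, since Fgfr1 alone had 4 of the 16. The split of 7 higher and 4 lower was 9 and 3 after loess, 8 and 3 after centring, 7 and 0 with normexp background correction and 15 and 0 with spike-in scaling. Over all probes the main shares of 14.1% higher and 44.4% lower became 20.9% and 26.7% after loess, 22.7% and 29.4% after centring, 11.2% and 23.8% with normexp, and 77.0% and 0.594% with spike-in scaling.

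**Figure D2:**
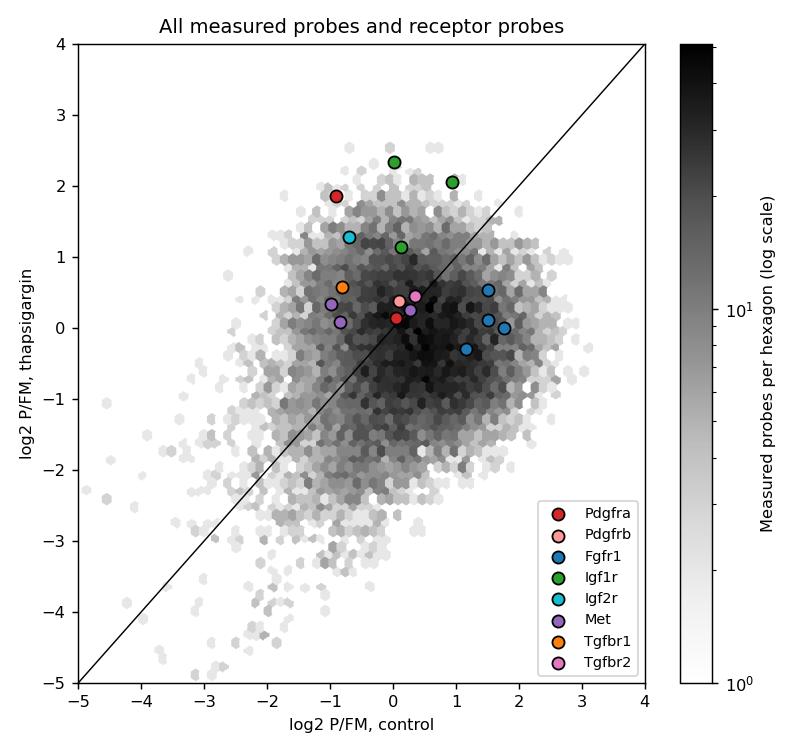
log2 P/FM with thapsigargin against control for all 17173 measured probes (grey hexagons, shaded by the number of probes on a log scale) and for the 16 receptor probes (coloured by gene). The line marks equal values and 99 probes lie outside the axes. The 4 Fgfr1 probes lie to the right, below the line, and the Igf1r probes starting at 4980 and 10422 and the Pdgfra probe starting at 6211 lie near the upper edge of the cloud.

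The PDGF receptor alpha mRNA had the largest shift among the measured probes of the receptors. Its probe near the 3′ end (start 6211 on the transcript) kept 8 of 10 spots, 2 being outliers. In control cells the P signal of these spots ran from 198.0 to 279.4 with a median of 256.5, below the FM signal, which ran from 379.6 to 518.4 with a median of 487. With thapsigargin the P signal ran from 534.9 to 717.3 with a median of 639 and the FM signal from 130.8 to 201.8 with a median of 174. Every FM spot was above every P spot in control, and every P spot above every FM spot under stress. The spots are technical repeats on 1 array each, and the share of other probes that separate likewise is not given. log2 P/FM thus went from -0.90 to 1.86, a change of 2.76 ± 0.17 (SD over 8 spots of 1 array each). The other Pdgfra probe, starting at 281, was only just measured, with A of 4.52 and 4.75, and its FM signal did not clear the background on the arrays. With the dim signals as scanned, its log2 P/FM was 0.05 in control and 0.13 under stress, which bounds no change. The gene mean of 1.42 rests on both probes and would be 2.76 without the dim one.

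Pdgfrb, the receptor for PDGF-B, had 1 probe. Its P signal went from 517.4 to 1109.4 and its FM signal from 482.2 to 851.1, so both fractions gave more signal on the stress array. log2 P/FM was 0.10 in control and 0.38 under stress. The difference of 0.28 was smaller than the common spread between probes, and A was higher by 0.96. The difference depended on the processing. It was 0.45 with normexp, 0.79 after centring, 1.09 with the processed signals of the scanner software, 1.15 after loess and 2.83 with spike-in scaling.

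**Figure D3:**
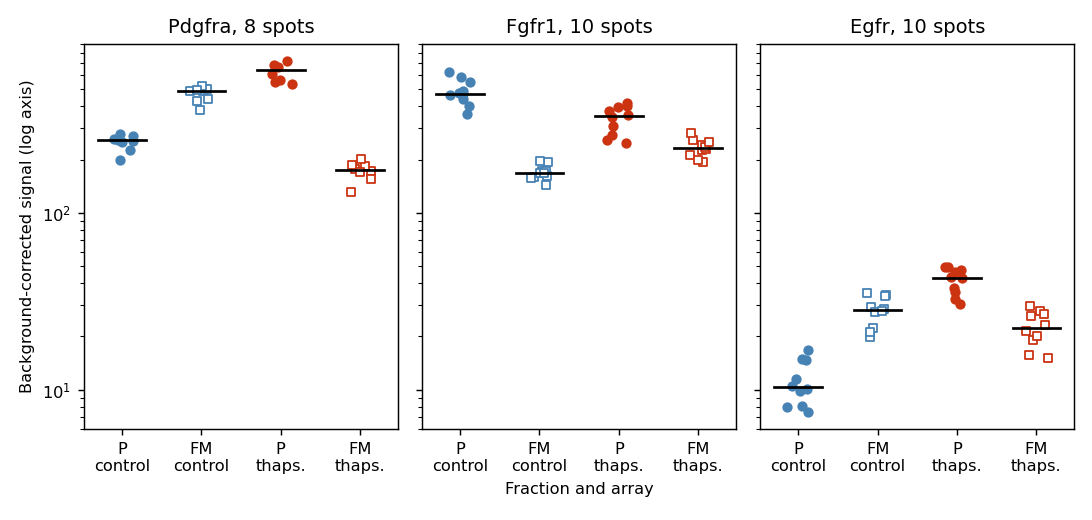
Background-corrected signals (log axis) of every spot used for the Pdgfra probe starting at 6211, the Fgfr1 probe starting at 2267 and the Egfr probe starting at 5869, in the P (filled) and FM (open) fractions of the control (blue) and thapsigargin (red) arrays. Black lines are medians. P and FM exchange order between the arrays for Pdgfra and Egfr, whereas for Fgfr1 P stays above FM at medians of 354 and 232 under stress.

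Fgfr1, the main FGF receptor of fibroblasts, stood on the opposite side. It had the highest log2 P/FM of the measured receptors in control, 1.48 in the mean of 4 probes, at percentile 89.5 of all measured genes. With thapsigargin it was 0.09, at percentile 67.2, and the change was -1.39 ± 0.32 (SD over 4 probes). The probe with 10 spots, starting at 2267 of its record, had control P signals of 362.5 to 622.5 and FM signals of 143.8 to 195.8, and under stress 247.8 to 419.3 and 194.3 to 282.1. Its log2 P/FM went from 1.51 to 0.53, a change of -0.98 ± 0.15 (SD over 10 spots). The overlapping probe shown above gave 1.15 and -0.29, a change of -1.44, so 2 probes that share all but 1 of 39 bases differed by 0.46 in the change, more than the SD over spots. The remaining probes, starting at 692 and 2230, gave changes of -1.39 and -1.76. The 4 probes had the same direction except that with normexp the probe starting at 692 was at 0.022, and that with spike-in scaling all 4 were above 0.

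The direction of Fgfr1 came from both fractions as scanned. The P signal of its 4 probes under stress was 0.514 to 0.696 times the control signal and the FM signal 1.35 to 1.94 times. In the 12 measured probes of the other 7 receptors the P signal was 1.16 to 3.81 times the control signal, and the FM signal 0.368 to 1.76 times, lower in 8 of 12. Over all measured probes the median was 1.05 times for P and 1.59 times for FM. These are raw signals of 2 arrays, not scaled to each other.

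Igf1r, the receptor of IGF-1, and Igf2r showed the next changes in size. The 3 measured Igf1r probes, starting at 4980, 5924 and 10422, had log2 P/FM of 0.93, 0.13 and 0.02 in control and of 2.06, 1.14 and 2.34 under stress. Each rose by 1 or more, and the gene mean changed by 1.49 ± 0.72 (SD over 3 probes). The stress level of 1.85 for the gene was at percentile 99.3 of all measured genes. Another Igf1r probe, designed on a cDNA record, was below the A limit under stress, with A of 4.23. In neither array did its P signal rise well above background, and in control it had log2 P/FM of at most -2.42, far below the other 3 probes. Igf2r had 1 probe, on chromosome 17, for which the array annotation gives no full genome position, and whose P signal went from 170.3 to 649.3 with FM signals of 276.6 and 267.5. log2 P/FM rose from -0.70 to 1.28 and the change of 1.98 was at percentile 97.1 of all measured genes. It was between 1.75 and 4.53 under the alternatives tried.

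The insulin receptor mRNA was not measured by the A limit. The probe of Insr starting at 8550 had a P signal of 12.1 in control, not well above background, and of 41.5 under stress, well above it, whereas its FM signal of 24.1 was well above background in control and that of 7.5 under stress was not. With each dim channel set to the level that 99.9% of well measured spots exceed, log2 P/FM was at most -0.54 in control and at least 0.83 under stress, a change of at least 1.38. These limits are not strict, because dim signals can exceed that level (16.6 for P in control, 23.3 for FM under stress). The Met probe starting at 5857 did so, with dim signals of 22.2 and 27.8. No channel of the probe starting at 4038 was well above background.

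Egfr was likewise too dim, with A of 4.11 and 4.91 for its brightest probe, starting at 5869. In control the P signal of its 10 spots ran from 7.5 to 16.8, with none well above background, and the FM signal from 19.8 to 35.0, with 5 of 10 well above it. Under stress the P signal ran from 30.6 to 49.7, with all 10 well above background, and the FM signal from 15.1 to 29.8, with none. The P spots of the stress array did not overlap those of the control array. These are unscaled signals of technical repeats on 1 array each, and the share of other probes that separate likewise is not given. With dim channels set as for Insr, log2 P/FM was at most -0.73 in control and at least 0.81 under stress, a change of at least 1.54. These limits are not strict either. The deposited table of log2 ratios also holds Egfr, although its probes lie under the A limit used here. It gives -1.24 in control and 1.04 under stress, a change of 2.28. Of the 5 other Egfr probes, 4 were not well above background in any channel, among them the one printed as 10 spots on the transcript of the truncated form, and 1 was above it only in P under stress. The values for Insr and Egfr, which lie outside the filter, were picked out after they were seen.

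Met, the HGF receptor, gave a different answer at each of its probes. The coding probe, starting at 3437, had log2 P/FM of 0.27 and 0.25, a difference of -0.02. The probe starting at 6436 had P signals of 449.6 and 731.9 and FM signals of 891.2 and 578.0, and its log2 P/FM rose from -0.99 to 0.34, by 1.33. The probe between them, starting at 5857, was dim in P in control and in FM under stress. Its change was 0.93 with these signals as scanned, 0.47 without background subtraction, 0.60 with normexp and 1.16 after loess. The gene mean of 0.75 ± 0.69 (SD over 3 probes) was not past the limit of 1. It was also under 1 with normexp (0.77) and without background subtraction (0.60). The gene mean was past 1 after loess (1.17), after centring (1.26), with the processed signals (1.36) and with spike-in scaling (3.30). The coding probe was at 0.15 after loess, 0.52 with normexp and 2.53 with spike-in scaling.

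Tgfbr1, the type I kinase, had 1 measured probe, starting at 5290, with P signals of 73.5 and 153.7 and FM signals of 128.8 and 103.4. Its log2 P/FM rose from -0.81 to 0.57, by 1.38. A second Tgfbr1 probe, starting at 1366, was below the A limit, with a dim FM signal on both, and its log2 P/FM was at least 0.22 in control and at least 0.05 under stress. Tgfbr2, the type II kinase that binds the ligand first, had P signals of 572.6 and 663.4 and FM signals of 447.7 and 487.7 at its measured probe. Its log2 P/FM of 0.36 and 0.44 differed by 0.09, under the median spot SD of other probes, as it had 1 spot itself. This small difference depended on the processing. It was 0.32 with normexp, 0.60 after centring, 0.86 with the processed signals of the scanner software, 0.87 after loess and 2.64 with spike-in scaling.

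A, the abundance measure, is a mean of 2 log2 signals and log2 P/FM a difference, so sizes of change are not compared between them. The median change in A of the 8 receptors was 0.26 and that of all genes was 0.35, but the sign of the former was negative with normexp (-0.71), with the processed signals of the scanner software (-0.12) and after centring (-0.23). No receptor probe changed in A by 1 or more in either direction, against 12.7% of all probes higher and 1.29% lower. With normexp 4 of 16 were lower in A by 1 or more (32.2% of all probes), with spike-in scaling 2 of 16 were higher (25.0% of all probes), and without the A filter 2 of 28 were higher (10.5% of all probes). Pdgfrb at 0.96 and Igf2r at 0.94 came closest. Total RNA was not hybridised, so A joins 2 separately labelled fractions and is no measure of the whole mRNA pool.

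The position of the probe on its transcript went with the size of the change, a relation chosen for description after the values were seen. Measured probes on RefSeq transcripts were grouped by the base at which they start. The median change was -1.39 for 3710 probes starting below 1000, -0.98 for 4353 from 1000, -0.38 for 2921 from 2000, 0.04 for 1675 from 3000, 0.50 for 1313 from 4000 to 6000, and 1.42 for 685 from 6000 on. The share of probes rising by 1 or more went from 3.45% in the first group to 65.8% in the last. A late start requires a long transcript, so transcript length and the place of the probe cannot be told apart across genes. Probes of the same transcript record share its length. In 1819 RefSeq transcripts the outermost measured probes start 1000 or more bases apart. There the change at the 3′ probe exceeded that at the 5′ probe by 0.61 in the median, and was the larger in 77.6% of transcripts. In 1619 transcripts with outermost probes closer than that, the median difference was 0.02. In the distant pairs log2 P/FM was lower at the 3′ probe by a median difference of -0.34 in control and higher by 0.24 under stress, and A averaged over both arrays was higher by 0.80. The difference between distant probes was 0.23 with normexp and 0.80 after loess, and centring or spike-in scaling cannot alter it. Distant pairs exist only on long transcripts and their 3′ probes were brighter, so position was not separated from these. The cause of the difference and its part in the receptor values were not tested.

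Most receptor probes started late on their transcripts. Of their 15 measured probes on RefSeq transcripts, those of Igf1r, Igf2r, Pdgfrb, Tgfbr1, Tgfbr2, the strong Pdgfra probe and 2 of the Met probes start beyond 4000. Set against probes with the same range of starts, the Pdgfra probe starting at 6211 was at percentile 92.7 of the change and the dim one starting at 281 at 88.5. The Igf1r probes starting at 4980, 5924 and 10422 were at 72.0, 67.6 and 84.5, Tgfbr1 at 79.0 and Igf2r at 73.0. The Met probes starting at 3437, 5857 and 6436 were at 47.8, 64.4 and 46.3. Pdgfrb and Tgfbr2 were at 40.7 and 35.6, below the middle of their range. The Fgfr1 probes starting at 2230 and 2977 were at 8.63 and 15.4, and the one starting at 692 was at 49.8. Between the outermost probes of a receptor, the 3′ probe exceeded the 5′ probe in the change by 1.34 for Met, 1.19 for Igf1r and 2.68 for Pdgfra, whose 5′ value is the dim one above. Fgfr1, with probes 2285 bases apart, gave -0.05 at its farthest, at percentile 20.8 of the distant pairs, and none of its probes starts beyond 2977.

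**Figure D4:**
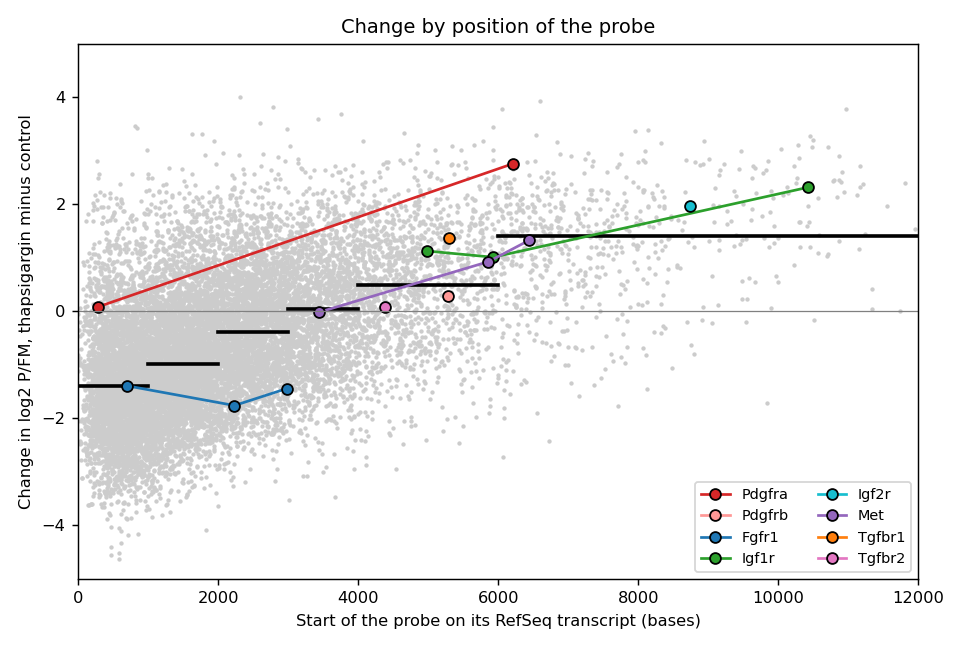
Change in log2 P/FM (thapsigargin minus control) against the base at which a probe starts on its RefSeq transcript, for measured probes (grey, of which 43 of 14657 lie beyond the axis) and receptor probes (coloured, lines joining probes of a transcript). Black bars are the medians of all probes in each range of starts, rising from -1.39 to 1.42. Most receptor probes lie beyond 4000, near or above the bars, and the Fgfr1 probes at 2230 and 2977 lie below theirs.

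The remaining genes of the pathways were taken from lists of signalling components, whose counts stand against 46.1% of all measured genes lower and 12.4% higher and a median change of -0.67. Among other receptor tyrosine kinases, 15 of 34 genes on the array were measured, 9 fell and 3 rose past the limits, and the median change was -1.49 (1.06 with spike-in scaling). Ddr2, a collagen receptor, went from 0.01 to 1.78 and Ptk7, a pseudokinase of Wnt signalling, from -0.19 to -2.60. Among other receptors of the TGF-beta superfamily 7 of 12 were measured, 1 fell, 1 rose and the median change was 0.63. It was -0.38 without the A filter. With probes of A above 7 it was 1.96, a value that rests on 1 gene. None had a mean A that met the brightness rule for naming. Of the ligands, 11 of 24 were measured, 1 fell and 3 rose, with a median change of 0.62. That median was 0.10 with A above 7, 0.15 without background subtraction and 3.17 with spike-in scaling. Fgf7, a growth factor for epithelia, went from -1.41 to 0.66, and Tgfb1, the TGF-beta1 ligand, from 0.80 to -1.37. Fibroblast integrin subunits, surface receptors for matrix, had 8 of 13 measured, 1 fell and 1 rose, with a median of 0.43. The integrin median was 0.09 without the A filter, 0.12 with A above 5.5 and 2.98 with spike-in scaling. Itgb3 was at -1.48 and -0.74 and Itgb5 went from 1.23 to -0.58.

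The lists of cytoplasmic components had lower medians than the receptors, as had the other pathway lists. The median of other receptor tyrosine kinases, -1.49, was lower than that of any cytoplasmic list. Of 16 measured adaptors and docking proteins 8 fell and 1 rose, against 46.1% and 12.4% of all genes, with a median change of -0.85 (0.13 with normexp and 1.70 with spike-in scaling). Crkl, an SH2 and SH3 adaptor, was at 0.94 and 1.91, whereas Grb14, which binds the insulin receptor, fell from 0.89 to -1.07. In the PI3K and Akt arm 8 of 21 fell and 6 rose, with a median of 0.06 that was -1.08 among genes with A above 7. Akt1, a kinase activated downstream of PI3K, fell from 0.73 to -1.97. In the Ras and MAP kinase arm 8 of 16 fell and 1 rose, with a median of -0.75 (1.80 with spike-in scaling), close to the values over all genes. Map2k2, which phosphorylates ERK, fell from 1.71 to -1.28, and Nras, at -0.52 and -0.35, had the highest change of the bright genes. In the Smad arm 4 of 12 fell and 3 rose, with a median of -0.27 that was 0.46 with normexp, 0.25 after centring and 2.28 with spike-in scaling. Smad7, an inhibitor of the TGF-beta receptor, rose from -0.12 to 1.12, and Smurf1, a ubiquitin ligase, fell from 1.16 to -0.40. Of 16 measured genes of receptor inhibition and degradation 7 fell and 1 rose, with a median of -0.54 that was 0.10 with the processed signals, 0.18 after loess and 2.01 with spike-in scaling. Errfi1, an inhibitor of Egfr, rose from -0.18 to 0.91 and Ptpn2, a tyrosine phosphatase, fell from 0.53 to -1.31. Transcript length and probe position were not adjusted for in these lists.

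**Figure D5:**
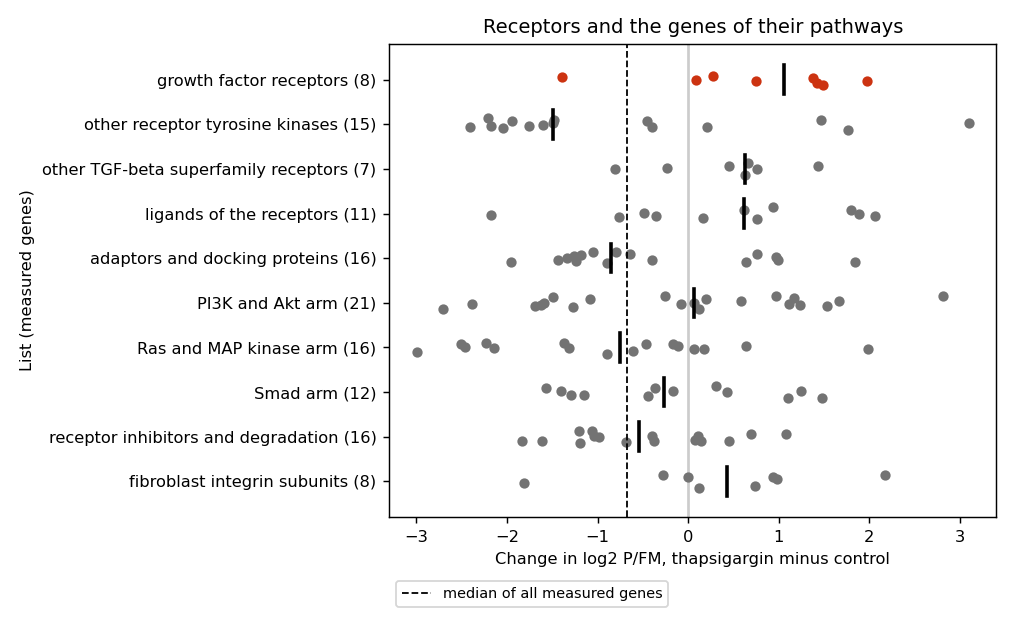
Change in log2 P/FM of each measured gene of the receptors (red) and of the pathway lists (grey), with the number of measured genes in parentheses. Short bars are list medians and the dashed line is the median of all measured genes, -0.67. The receptors have a median of 1.06, and other receptor tyrosine kinases one of -1.49.

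For each measured receptor, the gene with the most similar 4 log2 signals (P and FM on both arrays) was sought among 6600 other genes with A above 7 on both arrays. The closest matches were Slc6a6, a taurine transporter, for Igf1r at a Euclidean distance of 0.14, Tmem41b for Pdgfrb at 0.17 and U2af2, a splicing factor, for Fgfr1 at 0.17. Eps8 lay at 0.25 from Tgfbr2, Mtmr11 at 0.27 from Met and Pcnt at 0.32 from Igf2r. Pdgfra and Tgfbr1 had no close match among such bright genes, the nearest, again Mtmr11, being at 1.28 and 0.81. With 4 values a gene, such likeness describes the signals only.

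Cells and treatment were checked by marker genes. All 10 fibroblast markers were measured, and of 14 markers of other cell types on the array only Cd3e was, at A of 6.06 and 5.93. Among stress genes, log2 P/FM rose for Atf4 from -1.60 to 1.83, for Ddit3 from -1.74 to 0.84, for Ppp1r15a from -1.16 to 1.29 and for the chaperone Hspa5 from 1.06 to 2.43. It was -0.12 and 0.66 for Dnajb9, 0.46 and 0.46 for Hsp90b1, 0.67 and 0.66 for Herpud1, and 0.75 and 0.51 for Xbp1. A was higher by 1 or more for 7 of these 8 genes, the exception being Atf4 at 0.79. Of the 43379 non-control spots, 42.5% to 46.3% were well above background in a channel, and none was saturated.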

How the data were processed

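Polysome and free plus monosome RNA of control and thapsigargin-treated NIH3T3 cells was hybridised to 2-colour mouse arrays, 1 per condition. The authors deposited the scanner intensity values of each spot, made with Agilent Feature Extraction 10.7.1 per the labels, and a table of log2 ratios, Cy3 over Cy5, not normalized. Here the mean signal minus the median local background, with values under 0.5 set to 0.5, was computed with limma 3.58.1 in R 4.3.3 from the deposited intensity columns. Outlier spots were left out, spots of a probe were averaged, probes with A above 4.5 on both arrays were kept, and genes were means of probes. With 1 array a condition, calls are limits on the change (-0.8, 1) and no test was run. A channel without a spot well above background was set to the higher of its signal and the level exceeded by 99.9% of spots well above background (the lowest such spot was at 0.5, under its local background). Values given as at least or at most hold at this setting and are not strict bounds, because dim channels can exceed that level. Probe positions are those of the array annotation (mm9), and 11 of 11 RefSeq accessions of the receptors matched their symbol in a RefSeq table. Named were all receptors and, from each pathway list, the genes with the highest and the lowest change among those with A above 7 and all probes well above background, 8 stress genes and the nearest gene of each receptor. In 1 list the gene with the highest change is not reported here. The receptors and lists were chosen with earlier results of these data known. The scripts were tested on simulated data. Alternatives were background corrections, scalings, filters, the deposited table and probe weighting. The number of arrays limits the precision. Spots and probes of an array are technical repeats.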

Additional observations from a re-analysis of the deposited data

How the results depend on the processing

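Of the 12 alternatives for the median change in log2 P/FM of the receptors, all kept it above 0. It was 1.44 with the processed signals, 1.57 after centring, 3.61 with spike-in scaling and 0.61 with each probe counted by itself. The median was also under 1 with normexp (0.89), without background subtraction (0.80), without the A filter (0.78) and in the deposited table (0.77). The median change in A of the receptors was -0.71 with normexp, -0.12 with the processed signals and -0.23 after centring. The number of receptor probes lower by 0.8 or more was 0 with normexp and 0 with spike-in scaling. The number higher by 1 or more was 15 of 16 with spike-in scaling (77.0% of all probes) and 11 of 28 without the A filter (16.0% of all probes), against 7 of 16. The number of inducible probes, 4 of 16 in the main setting (12.7% of all probes), was 7 with the processed signals (17.7%), 7 after loess (18.4%) and 7 after centring (20.2%). Without the A filter it was 8 of 28 probes (14.3% of all probes). With spike-in scaling the direction of Fgfr1 turned, to 1.16 for the gene and to 1.57, 0.79, 1.16 and 1.11 for its probes starting at 2267, 2230, 692 and 2977, and with normexp the probe starting at 692 was at 0.022. The list medians of other receptor tyrosine kinases (1.06) and of adaptors (1.70) turned with spike-in scaling as well, and that of adaptors with normexp (0.13). Without the A filter Tgfbr1 was at 0.77 and Tgfbr2 was at -1.27, the latter with 2 further probes that had no channel well above background. The cause of these shifts was not tested. The difference between distant 3′ and 5′ probes, added after the data were seen, lay between 0.23 and 0.87 over 10 alternatives. Depth is limited by signal over background: 12 of the 28 receptor probes were too dim, and no array was repeated, so biological spread is unknown. Protein length was not run. No paired analysis was possible because each condition had 1 array.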
